A study of Mus musculus with 6 samples.

Results

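Genes for the precursors of 7 neuropeptides (Sst, Npy, Cck, Tac1, Penk, Pdyn and Pomc) were followed in whole brains of mouse embryos with and without DNA topoisomerase IIβ. The genes were picked by name, through the platform's gene symbols, and 10 probe sets represented them, among 8251 genes on the array with a symbol of their own. A probe set is a group of short oligonucleotides read as a single value. Penk had 3 probe sets, Pdyn had 2, and the 5 other genes had 1 each. Of the 10, 7 passed the filter on dim probe sets (a mean log2 value over the arrays of at least that of an intensity of 37.0, after low and negative readings were raised to 2.39), and together they stood for 6 genes. Pdyn did not pass.

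There were 6 Affymetrix MG_U74Av2 arrays, 1 for Top2b+/+ and 1 for top2b-/- at each embryonic age (E14.5, then E16.5, then E18.5). All embryos were on 129SvEv with a minor share of 129SvJ, and the RNA was total RNA of the whole brain. The labels give 5 arrays as male and the top2b-/- array of E16.5 as female, so sex and genotype cannot be told apart at that age. Whether an array held the RNA of 1 embryo or of a pool was not given in the sources used here. Each combination of genotype and age had a single array, so the genotype difference was replicated over ages alone, and p-values speak only of the spread among these arrays.

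A neuropeptide begins as a long precursor protein that enters the secretory pathway. Proprotein convertases cut it at pairs of basic residues, carboxypeptidase E trims the ends, many peptides are amidated by Pam, and the products wait in dense-core vesicles until release onto G protein-coupled receptors. In the embryonic forebrain, Sst and Npy mark classes of GABAergic interneurons, Tac1, Penk and Pdyn are made by striatal projection neurons among others, Cck is made by both pyramidal cells and interneurons, and Pomc is made by arcuate neurons of the hypothalamus and by the pituitary. In such bulk tissue, fewer cells of a type and less RNA per cell cannot be told apart.

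The sequences upstream of 4 members are shown because 3 of them (Sst, Npy and Tac1) read lower in top2b-/- brains at every age and the fourth (Cck) did not. They are the 250 bases before the transcript start in RefSeq's GRCm38.p6 annotation, 5′ to 3′ on the gene's own strand, and capitals mark matches to the cAMP response element TGACGTCA or to its shorter relative TGCGTCA.
Sst, chr16:23890845-23891094, minus strand: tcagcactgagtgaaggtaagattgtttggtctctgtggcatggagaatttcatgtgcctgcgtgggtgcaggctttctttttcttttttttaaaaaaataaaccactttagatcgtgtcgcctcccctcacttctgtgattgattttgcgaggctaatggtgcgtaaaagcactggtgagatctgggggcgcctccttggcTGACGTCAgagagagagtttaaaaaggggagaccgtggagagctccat
Npy, chr6:49822460-49822709, plus strand: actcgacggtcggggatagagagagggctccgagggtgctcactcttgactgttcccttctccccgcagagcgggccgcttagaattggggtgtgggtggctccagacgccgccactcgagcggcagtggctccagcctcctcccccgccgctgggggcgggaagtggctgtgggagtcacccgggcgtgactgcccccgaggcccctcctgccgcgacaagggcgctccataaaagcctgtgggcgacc
Tac1, chr6:7554811-7555060, plus strand: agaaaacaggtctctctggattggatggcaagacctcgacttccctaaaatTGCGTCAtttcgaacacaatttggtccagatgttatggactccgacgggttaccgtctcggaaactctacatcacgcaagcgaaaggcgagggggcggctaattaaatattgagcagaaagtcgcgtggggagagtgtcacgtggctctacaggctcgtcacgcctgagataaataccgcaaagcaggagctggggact
Cck, chr9:121495695-121495944, minus strand: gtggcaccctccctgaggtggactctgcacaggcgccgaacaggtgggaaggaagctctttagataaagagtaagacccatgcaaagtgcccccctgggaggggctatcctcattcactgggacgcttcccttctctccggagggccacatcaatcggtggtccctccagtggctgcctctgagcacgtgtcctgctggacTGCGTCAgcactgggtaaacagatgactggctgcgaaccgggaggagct
Both strands were searched for these motifs, which cannot overlap each other, and for the TATA box in the exact form TATAAA. The full element, to which the factor CREB binds, lay 48 to 41 bases before the start of Sst and in none of the other 5 members with a sequence (Penk had none), against 1.55% of 32851 windows of this length. The relative lay 199 to 193 bases before the start of Tac1 and 49 to 43 bases before that of Cck, against 1.75% of windows. The exact letters TATAAA were found upstream of Pomc alone among the 6 members searched, against 12.4% of windows. Variants of the TATA box were not searched for, so its absence elsewhere is not shown. None of the 3 motifs was found upstream of Npy or Pdyn. Such matches are a description of these letters only.

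Facts of the arrays bear on all values. Deposited medians ran from 55.5 to 83.2, and each array was multiplied by a factor of 0.919 to 1.38 to reach a common median. The factor of 1.38 belonged to the Top2b+/+ array of E16.5, so differences at that age depend most on this step. Values below are these scaled intensities. The noise limit of an array, taken as the size of its 5th percentile because negative readings show the spread of signal around 0, was 26.9 to 40.7. Top2b, the targeted gene, read 538, 281 and 326 in Top2b+/+ brains, in order of age, and 48.1, 45.6 and 34.4 in top2b-/- brains, which matches the labels. Of 9 pan-neuronal markers on the array, all 9 lay above the noise limit on each array, as a brain sample should show.

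**Figure D1:**
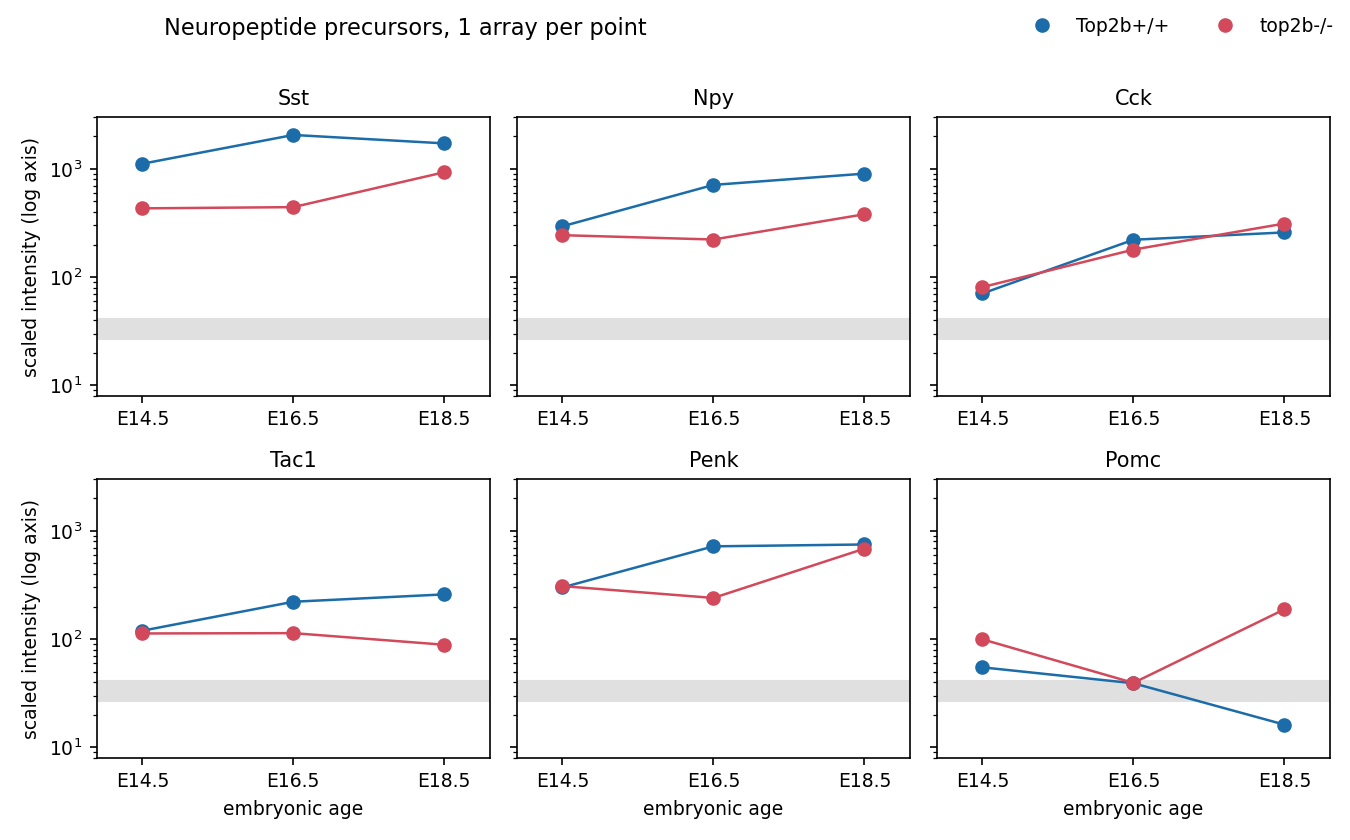
Scaled intensity (log axis) of the 6 genes with a probe set that passed the filter, by embryonic age, with 1 array per point, Top2b+/+ in blue and top2b-/- in red. The grey band spans the noise limits of the 6 arrays, 26.9 to 40.7. Sst and Tac1 do not overlap by genotype, though the nearest Tac1 readings are 119 in Top2b+/+ and 113 in top2b-/- brains. Cck overlaps, and Pomc lies in or below the band on the E16.5 arrays and on the Top2b+/+ array of E18.5.

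Sst, the precursor of somatostatin, an inhibitory peptide of interneurons, had the largest fitted decrease among the members in top2b-/- relative to Top2b+/+ brains. In order of age, as for all triplets of values below, it read 1115, 2056 and 1719 in Top2b+/+ brains. In top2b-/- brains it read 432, 443 and 931. Every Top2b+/+ reading lay above every top2b-/- reading, and the lowest gap was between 931 and 1115. Such a lack of overlap, with top2b-/- below, was seen for 3.74% of the 7453 probe sets tested. The fitted difference was -1.49 ± 0.25 on the log2 scale (SE, 6 arrays), or 2.81-fold, and lay outside the middle 90% of all probe sets, -0.52 to 0.44. It did not pass over all probe sets (limma, adjusted p = 0.278). Within single ages Sst was 2.58-fold, 4.64-fold and 1.85-fold lower. At E18.5 Npy and Tac1 were lower by more, 2.37-fold and 2.92-fold. The E16.5 gap was -2.21 on the log2 scale and -1.66 with the deposited values left unscaled.

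The age pattern of Sst differed in shape between the genotypes. In Top2b+/+ brains the E16.5 reading was 1.85 times that of E14.5, and the E18.5 reading was below it. In top2b-/- brains the E14.5 and E16.5 readings were nearly equal, and the one of E18.5 was 2.10 times that of E16.5. From E14.5 to E18.5 the ratio was 1.54 in Top2b+/+ and 2.16 in top2b-/- brains. The age difference of 0.87 ± 0.31 did not pass (limma, adjusted p = 0.202), nor did the interaction of genotype with age, 0.12 ± 0.15 on the log2 scale per day (limma, adjusted p = 0.9998). No probe set of 7453 passed that interaction test in limma (0%), and 144 (1.93%) were higher and 173 (2.32%) lower at an unadjusted p under 0.05.

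Npy, the precursor of neuropeptide Y, a peptide of interneurons and of hypothalamic feeding circuits, separated by genotype after E14.5. In Top2b+/+ brains it read 295, 711 and 903. In top2b-/- brains it read 244, 222 and 381. The pair of E14.5 differed 1.21-fold, that of E16.5 differed 3.19-fold and that of E18.5 differed 2.37-fold, with top2b-/- below each time, although the groups overlapped because the youngest Top2b+/+ reading was below the oldest top2b-/- reading. On the log2 scale the E16.5 gap was -1.68, and it was -1.13 without scaling. The fitted genotype difference was -1.07 ± 0.27 (limma, adjusted p = 0.568), or 2.09-fold. From E14.5 to E18.5 the reading became 3.07 times as high in Top2b+/+ brains and 1.56 times as high in top2b-/- brains. Both E18.5 arrays lay above both E14.5 arrays, and the age difference of 1.13 ± 0.33 did not pass (limma, adjusted p = 0.143). Per day, Npy gained 0.24 less in top2b-/- brains on the log2 scale (-0.24 ± 0.13, limma, adjusted p = 0.9998).

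Tac1, which encodes substance P and neurokinin A, showed a genotype gap that was wider at each later age. It read 119, 221 and 259 in Top2b+/+ brains and 113, 113 and 88.7 in top2b-/- brains. The groups did not overlap, with top2b-/- below, as was seen for 3.74% of the probe sets tested. Their nearest readings were 119 in Top2b+/+ and 113 in top2b-/- brains. The readings of E14.5 were within 1.06-fold of each other, and those of E16.5 and E18.5 were 1.95-fold and 2.92-fold apart. The fitted genotype difference of -0.86 ± 0.29 did not pass (limma, adjusted p = 0.731). Between E14.5 and E18.5 the Top2b+/+ value became 2.17 times as high, and the top2b-/- value 1.27-fold lower. The interaction was -0.37 ± 0.11 per day on the log2 scale (limma, unadjusted p = 0.0189, adjusted p = 0.9998). Tac1 was the only member under 0.05 unadjusted in that test, where 2.32% of all probe sets were lower at that level. Without scaling, the E16.5 gap was -0.41 rather than -0.96.

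Penk, the precursor of the enkephalins, which are opioid peptides, differed by genotype mainly at E16.5. Its brightest probe set, 94516_f_at, read 300.01, 719 and 748 in Top2b+/+ brains and 309, 240 and 684 in top2b-/- brains. The suffix f marks probes that may be shared with similar sequences. The genotypes were thus nearly equal at the first and last age, and the E16.5 reading of top2b-/- was 2.998-fold lower. On the log2 scale that E16.5 gap was -1.58, and it was -1.03 with the deposited values left unscaled. The fitted genotype difference was -0.56 ± 0.32 (limma, adjusted p = 0.780), and it was -0.04 without the E16.5 pair. The age difference was 1.23 ± 0.40 (limma, adjusted p = 0.171), with E18.5 readings 2.49 times and 2.22 times those of E14.5 in Top2b+/+ and top2b-/- brains.

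The other Penk probe sets were dim. The probe set 94517_r_at read 23.9, 87.2 and 78.7 in Top2b+/+ and 46.9, 36.1 and 62.0 in top2b-/- brains, and it lay above the noise limit on 4 of 6 arrays. At E16.5 it too was lower in top2b-/-, by at least 2.14-fold, since that reading was within the noise. At E14.5 its order was the reverse, from a Top2b+/+ reading within the noise, and its fitted genotype difference was -0.21 ± 0.46, which turned to 0.31 without the E16.5 pair. Its age difference was 1.06 ± 0.57 (limma, adjusted p = 0.362). The probe set 161164_r_at lay within the noise on all 6 arrays, at most 6.08, and was not tested.

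The low top2b-/- reading of Penk at E16.5 came from an array on which 6 of the 8 meningeal markers above the noise were at their lowest as well (Ptgds, Col1a1, Col3a1, Dcn, Lum and Igf2). The summed intensity of 10 such markers was 3096 on that array and 4331 to 7657 on the other 5, and Igf2 alone made up 1408 of the 3096. Of the 10, 8 lay above the noise limit on each array, and Foxc1 and Aldh1a2 were within the noise throughout. Ptgds, an enzyme of prostaglandin synthesis made in the meninges, read 1277 in Top2b+/+ and 77.4 in top2b-/- brains at E16.5. It was lower in top2b-/- brains at the other ages too, at 95.4 against 177 at E14.5 and at 550 against 1873 at E18.5. Col1a2, a collagen, was at its highest on the array in question, at 467 against 291 in Top2b+/+, and Slc6a13, a transporter of the meninges, read 202 there against a lowest value of 170.4 in Top2b+/+ at E14.5. The array was also the female one, and Npy too had its lowest reading there, at 222. The part of meningeal tissue or of sex in the Penk and Npy readings was not tested.

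Cck, the precursor of cholecystokinin, rose with age in both genotypes. It read 70.6, 221 and 259 in Top2b+/+ brains and 80.9, 180 and 312 in top2b-/- brains. Each step was upward in each genotype, a pattern shown by 6.39% of all probe sets tested and by Cck alone among the 7 of the precursors. The age difference was 1.91 ± 0.22 (limma, adjusted p = 0.0333), a 3.76-fold rise, while 1.49% of all probe sets passed by age (0.59% upward and 0.899% downward). It was lost when the E16.5 arrays were left out (adjusted p = 0.0806), without the intensity trend (adjusted p = 0.0787) and with no filter on dim probe sets (adjusted p = 0.176), while it held without scaling, after quantile normalization, with the noise limit as the floor and with the stricter filter. The increase was 3.66-fold in Top2b+/+ and 3.86-fold in top2b-/- brains.

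Cck showed no direction by genotype. The top2b-/- reading was 1.14 times the Top2b+/+ reading at E14.5, 1.23-fold lower at E16.5 and 1.21 times as high at E18.5. The fitted difference of 0.05 ± 0.18 (limma, adjusted p = 0.951) was small against its SE, and its sign turned when either the E14.5 or the E18.5 pair was left out (-0.02 and -0.05). At E16.5 the sign also turned without scaling, from -0.30 to 0.25.

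**Figure D2:**
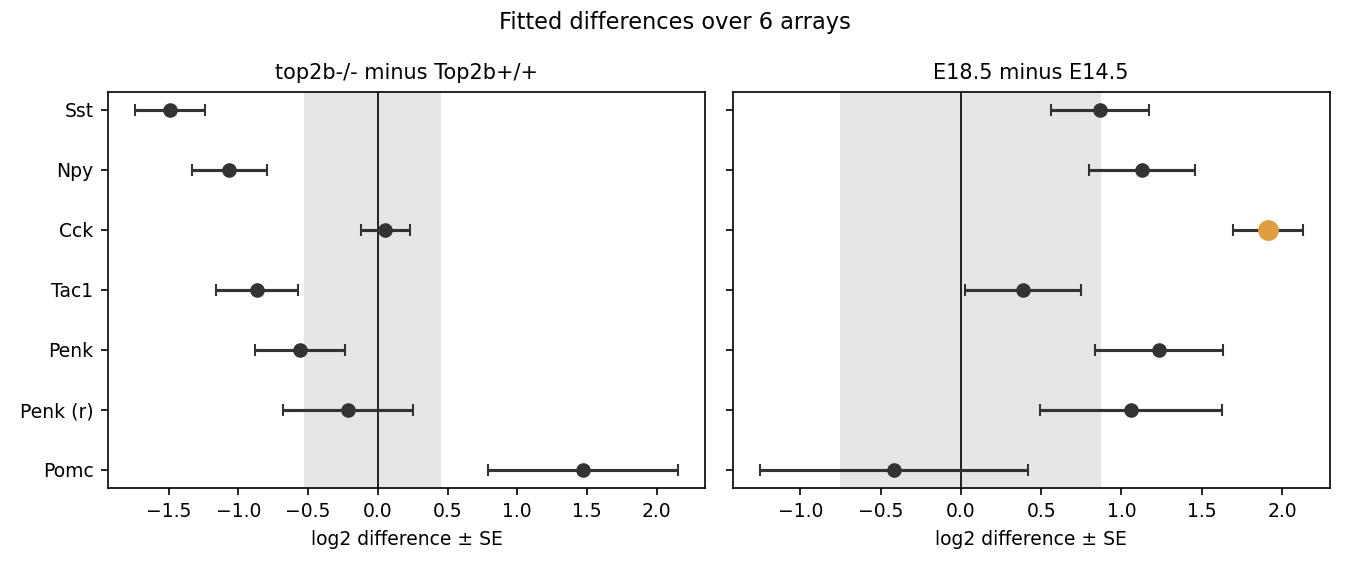
Fitted log2 differences with SE over 6 arrays for the 7 tested probe sets, by genotype on the left and by age on the right, where Penk (r) is 94517_r_at. Grey marks the middle 90% of all 7453 probe sets, -0.52 to 0.44 and -0.75 to 0.86, and the orange point passed the adjusted threshold. Only Cck in the age panel did.

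Pomc, which encodes ACTH, α-MSH and β-endorphin, was near the noise on most arrays and high on 1 of them. It read 54.8, 39.1 and 16.2 in Top2b+/+ brains and 99.4, 39.4 and 188 in top2b-/- brains. The E18.5 Top2b+/+ and E16.5 top2b-/- readings lay within the noise. At E18.5 the top2b-/- reading was at least 5.75-fold higher, with the other raised to its noise limit, and at E14.5 it was 1.81 times as high. At E16.5 the pair was level. The fitted genotype difference was 1.47 ± 0.68 (limma, adjusted p = 0.751), or 1.15 with the noise limit as the floor, and it was 0.44 without the E18.5 pair. The age difference of -0.42 ± 0.83 had no stable sign, as it was 0.09 with that floor.

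Genes of the pituitary were read beside Pomc, as the gland lies under the brain and makes the precursor in quantity. Of the 16 such markers, 11 were on the array. Their summed intensity was 1360 on the top2b-/- array of E18.5, where Pomc was highest, and 869 to 1047 on the other 5. Gh, growth hormone, alone made up 622 of the 1360. It read 335, 333.0 and 267 in Top2b+/+ and 398, 292 and 622 in top2b-/- brains. Cga, the shared subunit of pituitary glycoprotein hormones, read 27.6, 8.31 and 17.1 in Top2b+/+ and 60.5, 18.4 and 83.5 in top2b-/- brains. Like Pomc, it was highest on the E18.5 top2b-/- array, next on the E14.5 top2b-/- array, and it was within the noise on the others, whereas Pomc was above it in Top2b+/+ brains at E14.5 and E16.5.

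At E18.5, 6 of the 11 pituitary markers read higher in top2b-/- brains (Gh, Cga, Ghrhr, Tshb, Lhb and Lhx3) and 5 read lower (Prl, Pitx1, Crhr1, Fshb and Hesx1). Ghrhr, the receptor for growth hormone-releasing hormone, read 79.8 in Top2b+/+ and 154 in top2b-/- brains. Tshb, a subunit of thyrotropin, read 47.1 and 89.1, and its highest reading, 93.4, was that of Top2b+/+ at E16.5. Lhx3, a transcription factor of the gland, read 15.2, within the noise, and 34.5, just above that array's noise limit of 32.4. Prl, prolactin, read 55.6 and 26.9 and Pitx1, another such factor, 56.3 and -11.0, so both were within the noise on the array with high Pomc. Fshb and Hesx1 were within the noise on every array. Of the 4 pituitary genes that were tested, none passed by genotype or age, with Gh at 0.43 ± 0.27 and Ghrhr at 0.53 ± 0.23 (limma, adjusted p = 0.790 and 0.749). Cga was chosen for description after its values were seen. The part of pituitary tissue in the Pomc reading was not tested.

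**Figure D3:**
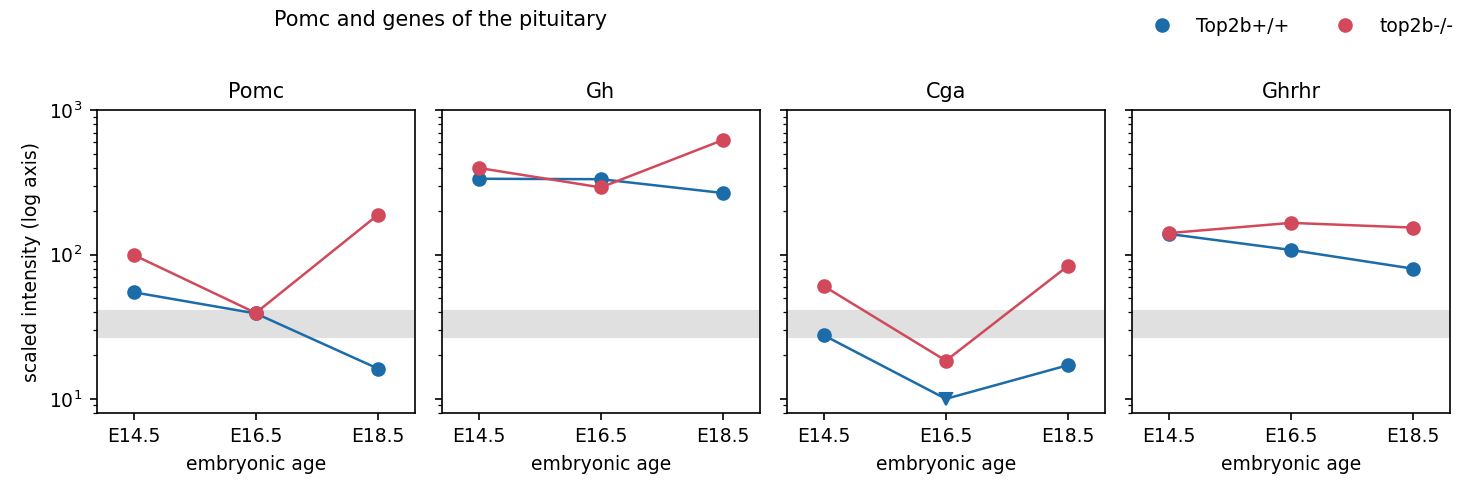
Scaled intensity (log axis) of Pomc and of Gh, Cga and Ghrhr by embryonic age, 1 array per point, Top2b+/+ in blue and top2b-/- in red, with the grey band as the noise limits. The triangle is a reading of 8.31 drawn at the lower end of the scale, at 10. On the top2b-/- array of E18.5, Pomc reads 188, Gh 622 and Cga 83.5, each the highest of its 6 readings. The pituitary markers that read lower in top2b-/- brains at E18.5 (Prl, Pitx1, Crhr1, Fshb and Hesx1) are not drawn.

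Pdyn, the precursor of the dynorphins, was not measurable. Its probe set 161987_at read 5.93, -10.5 and 17.7 in Top2b+/+ brains and -23.5, -2.25 and -7.93 in top2b-/- brains. The other, 99840_at, read -25.6, 7.87 and -4.79 in Top2b+/+ and -31.0, -21.7 and -13.7 in top2b-/- brains. All 12 readings lay within the noise limit, so they carry no order, and neither probe set was tested.

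Read as a group, no member passed by genotype in the limma fit, against 0.0403% of all probe sets (0.0268% called lower and 0.0134% called higher). At an unadjusted p under 0.05, 3 of 7 probe sets were lower (Sst, Npy and Tac1) and none higher, against 4.35% and 2.20% of all. The same 3 were lower at each of the 3 ages, as were 13.7% of all probe sets. Higher at each age were 15.9%, and Pomc among them only by 39.4 against 39.1 at E16.5, a log2 difference of 0.01 that was -0.01 after quantile normalization. Sst and Tac1, 2 of 7 probe sets, lay below without overlap, against 3.74% of all. No member lay above without overlap, as 4.47% of all probe sets did. With 1 probe set for each of the 6 tested genes, 4 had a lower value and 2 a higher one, where 49.1% of 5696 genes were lower. Their median was -0.71, against 0.01 over those 5696 genes. Without scaling the arrays, when all genes had a median genotype difference of 0.19 rather than 0.01, Sst, Npy and Pomc passed (limma, adjusted p = 4.14e-09, 0.0163 and 0.0217). Adjusted p over the alternatives ran from 4.14e-09 to 0.998 for Sst, from 0.0163 to 0.998 for Npy and from 0.0217 to 0.998 for Pomc.

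At single ages the members at least 2-fold lower in top2b-/- brains varied with age. At E14.5 it was Sst alone, 1 of 7 probe sets, against 2.25% of all. No member was 2-fold higher at E14.5 or at E16.5, against 1.95% and 2.91%. At E16.5 Sst, Npy and both Penk probe sets were at least 2-fold lower, 4 of 7, against 4.56%. The Penk probe sets read the same gene, and the top2b-/- reading of 94517_r_at lay within the noise. Without scaling, the E16.5 gap of 94517_r_at was -0.72 on the log2 scale, short of 2-fold. At E18.5 Npy and Tac1 were at least 2-fold lower, 2 of 7, against 2.58%, and Pomc was 2-fold higher, against 1.64%. No test was possible within an age, with 1 array against 1.

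**Figure D4:**
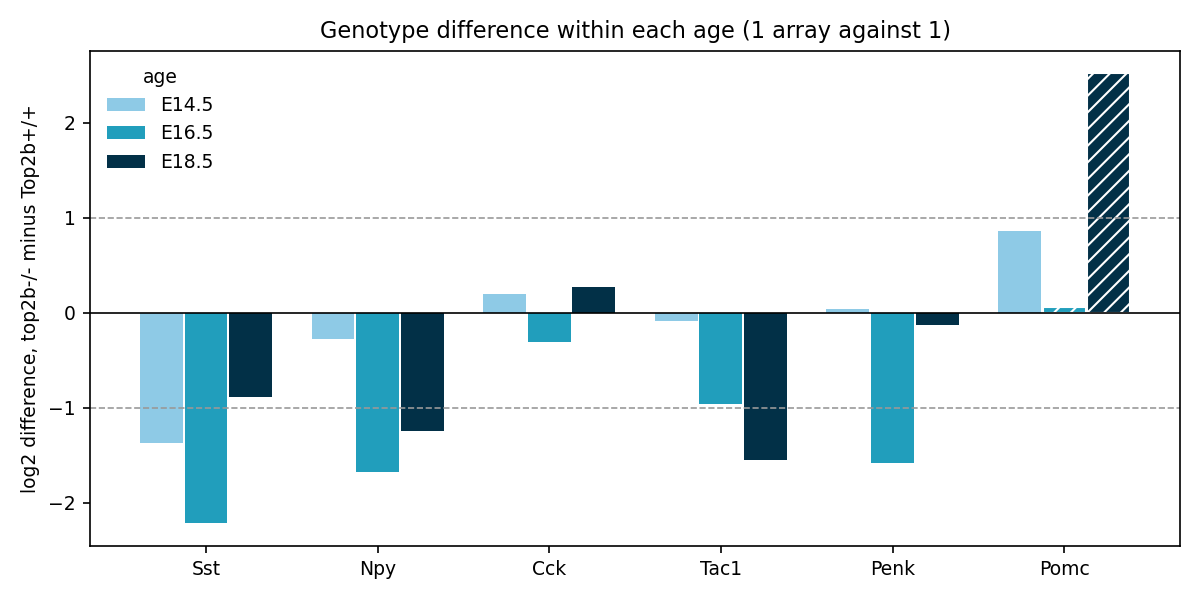
Log2 difference, top2b-/- minus Top2b+/+, within each age for the 6 measurable genes, 1 array against 1. Readings below the noise limit were raised to it, and hatched bars are those pairs. Dashed lines mark 2-fold. Sst is lower at all ages, Tac1 more so at each later age, Penk at E16.5 and Pomc is higher at E18.5.

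By age, Cck alone passed. At an unadjusted p under 0.05 from limma, 4 of 7 probe sets were higher at E18.5 (Sst, Npy, Cck and Penk 94516_f_at) and none lower, against 9.24% and 10.9% of all. Both E18.5 arrays lay above both E14.5 arrays for 4 of 7 (Npy, Cck and both Penk probe sets), against 23.7%, and below them for none, against 32.3%. In Top2b+/+ brains 5 of 7 were at least 2-fold higher at E18.5 (Npy, Cck, Tac1 and both Penk probe sets), against 4.86%. In top2b-/- brains 3 of 7 were (Sst, Cck and Penk 94516_f_at), against 4.23%. The median age difference over the 6 genes was 0.998, against -0.05 over all genes, of which 45.2% were higher at E18.5.

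Genes of GABAergic neurons put the readings of Sst and Npy in context. Of 13 such genes on the array 9 were tested, 7 of them with a higher and 2 with a lower value in top2b-/- brains (median 0.19). Over all genes 49.1% were lower. None of the 9 passed by genotype. Nxph1, lower in top2b-/- brains at each age but under the filter, was not counted and is described at the end. Gad1, which makes GABA, read 764, 1060 and 1436 in Top2b+/+ and 737, 1260 and 1301 in top2b-/- brains, a difference of 0.02 ± 0.12. Lhx6, the transcription factor of interneurons from the medial ganglionic eminence, from which Sst cells come, read 213, 326 and 368 against 218, 377 and 462, a difference of 0.19 ± 0.12. Slc32a1, the vesicular GABA transporter, was lower in top2b-/- brains at each age, at 692, 1358 and 1319 in Top2b+/+ against 586, 974 and 1100. It had a difference of -0.33 ± 0.10, and Calb1, a calcium buffer, one of 0.99 ± 0.21 (limma, adjusted p = 0.722 and 0.440). The summed intensity of all 13 was 3423 to 5604 in top2b-/- and 3571 to 5483 in Top2b+/+ brains. By age, 8 of 9 were higher at E18.5, against 45.2% of all genes. Slc32a1 (0.92 ± 0.13) and Calb2, calretinin (0.97 ± 0.15) rose (limma, adjusted p = 0.0405 and 0.0495). Whether Sst differs from these genes in its genotype difference was not tested.

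**Figure D5:**
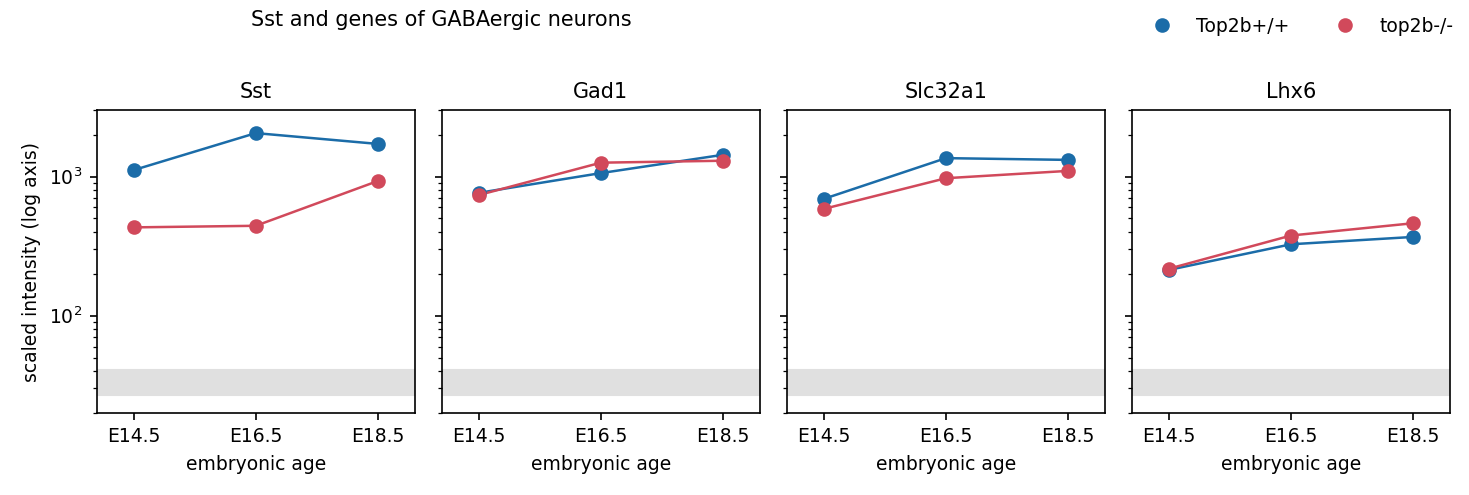
Scaled intensity (log axis) of Sst beside Gad1, Slc32a1 and Lhx6 by embryonic age, 1 array per point, Top2b+/+ in blue and top2b-/- in red, with the grey band as the noise limits. The genotypes are apart for Sst at every age, and closer together for Gad1 and Lhx6. Lhx6 reads higher in top2b-/- brains at every age. Like Sst, Slc32a1 reads lower in top2b-/- brains at every age, by less than Sst does.

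Tac1, Penk and Pdyn belong to striatal projection neurons, and 6 markers of these were on the array and tested. Of the 6, 4 had lower and 2 higher values in top2b-/- brains, where 49.1% of all genes were lower. Their median was -0.45, and none passed by genotype or age. Ebf1, a transcription factor of the striatonigral cells that make substance P, read 198, 188 and 144 in Top2b+/+ and 48.5, 19.98 and 9.55 in top2b-/- brains, the last 2 of these within the noise (-3.06 ± 0.40, limma, adjusted p = 0.198). Foxp1, a striatal transcription factor, had -0.58 ± 0.19. Drd2, the dopamine receptor of the striatopallidal cells that make enkephalin, had 0.20 ± 0.21 by genotype and 0.76 ± 0.26 by age. Pan-neuronal markers were lower in 9 of 9 cases by genotype, against 49.1% of all genes, with a median of -0.22, and none passed.

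The machinery for making and storing peptides had 1 gene that passed by age and none by genotype. Of 17 genes on the array 15 were tested. Of these, 8 had a lower and 7 a higher value in top2b-/- brains (median -0.04), where 49.1% of all genes were lower. None was past the threshold. Cadps, which primes dense-core vesicles for release, had -0.33 ± 0.11, and the convertase Pcsk1 had 0.60 ± 0.31 from readings of 27.4 to 57.6, close to the noise limits. By age all 15 had values above 0, as 45.2% of all genes did, with a median of 0.42 against -0.05 over all genes. Some were small, such as 0.13 ± 0.38 for Pcsk1. The gene that passed was Scg2, a granin of the vesicle core, which read 356, 568 and 780 in Top2b+/+ and 329.9, 531 and 647 in top2b-/- brains and rose by 1.05 ± 0.13 (limma, adjusted p = 0.0333). Pcsk1n, the precursor of a convertase inhibitor, had 1.26 ± 0.21 (adjusted p = 0.0582).

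Receptors were mostly dim. Of 21 on the array only 6 were tested (Sstr2, Sstr4, Sstr5, Npy2r, Cckbr and Mc5r), and the opioid and tachykinin receptors on the array did not pass the filter. None of the 6 passed by genotype or age, with medians of 0.08 and 0.05. Sstr2, a somatostatin receptor, read 321, 299 and 195 in Top2b+/+ and 432, 377 and 297 in top2b-/- brains, so it was the higher in top2b-/- at each age, where Sst was the lower (0.46 ± 0.12, limma, adjusted p = 0.591). Sstr4 read 106, 121 and 184 against 208, 194 and 190 (0.57 ± 0.22, adjusted p = 0.749). By age Sstr2 had -0.63 ± 0.15 (adjusted p = 0.0987) and Sstr4 0.33 ± 0.26.

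Among 37 other neuropeptide precursors listed, 23 were on the array and 8 were tested. None passed by genotype or age, with 4 higher and 4 lower by genotype (median -0.01) and 6 higher at E18.5 (median 0.08). Over all genes 49.1% were lower by genotype and 45.2% higher by age. Adcyap1, the precursor of PACAP, had a genotype difference of 0.27 ± 0.18, and Trh, the thyrotropin-releasing hormone precursor, one of 0.21 ± 0.16. Gal, galanin, had an age difference of 0.45 ± 0.20, and Adcyap1 one of 0.26 ± 0.22. Vip, Avp, Oxt and Hcrt did not rise above the noise limit on any of the 6 arrays. Avp, Oxt and Hcrt read below 0 throughout, and some negative readings of Avp and Oxt exceeded the limit in size. Of 10 hypothalamic genes on the array, which include some of these precursors, 6 were tested and none passed (medians 0.16 by genotype and 0.13 by age).

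The genes whose profiles over the 6 arrays were most like those of the members were found by the root mean square difference of log2 values after centring, among 6751 probe sets of other genes (6750 for Penk). As the smallest of so many distances, those listed were bound to lie below the median, which is given for scale only. For Sst they were Ckmt1, a mitochondrial creatine kinase (0.21), Igfbp3 (0.25) and the kinase Akt2 (0.26), against a median of 0.90. For Npy they were Chchd10 (0.22), the transcription factor Mef2c (0.24) and the growth factor receptor Pdgfra (0.24), against 0.80. For Cck they were the heat shock gene Hspa1a (0.15), Chst2 (0.16) and Mia (0.18), against 0.86. For Tac1 they were Mvd (0.10), Ldb2 (0.13) and the sodium-calcium exchanger Slc8a1 (0.13), against 0.61. For Penk 94516_f_at they were Pdgfra (0.15), Gsn (0.19) and Id1 (0.22), against 0.73. In top2b-/- brains, Igfbp3 at E14.5 and E16.5, Mia at E14.5 and Gsn at E16.5 were within the noise. Among the members themselves, Npy and Penk 94516_f_at were 0.35 apart and Sst and Npy 0.38, while Pomc was at least 1.38 from every other tested member.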

How the data were processed

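Each deposited value is the linear intensity of a probe set, from MG_U74Av2 arrays of biotin-labelled cRNA that the authors analysed with Rosetta Resolver, per the labels and design text. How probes were summarised was not given in the sources used here. Control probe sets (66 of 12488) were left out. Deposited medians spread by over 10%, so arrays were scaled to the mean of their medians. Values were raised to at least 2.39, the pooled 20th percentile, before taking log2. A filter kept the 7453 probe sets whose mean log2 value reached its 40th percentile.

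Genotype and age differences came from limma 3.58.1 in R 4.3.3 (lmFit, eBayes with an intensity trend) on genotype and 3 ages, with 2 residual degrees of freedom. The interaction came from genotype, day and their product. Benjamini-Hochberg adjustment ran over all probe sets, with a threshold of 0.05. The model was also run on simulated data with independent errors and the same genotype effect at every age. Those runs do not cover gaps that vary with age, and no result here rests on them. A fold is "at least" where a reading within the noise was raised to the noise limit. Symbols came from the platform annotation, updated by Entrez ID with RefSeq (GRCm38.p6), which matched 10817 probe sets.

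The members, gene lists and tests were chosen with earlier results of these data known. The rule for named genes took all members, from each list described the 2 smallest p by genotype and by age, and the 3 profiles most alike. Other list members are named as markers or as not above the noise limit. Alternatives covered scaling, floor, filter, trend, age term and each pair left out.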

Additional observations from a re-analysis of the deposited data

Results flagged for a closer look

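For 2 members the change from E14.5 to E18.5 ran in opposite directions in the 2 genotypes. Tac1 had a log2 change of 1.11 in Top2b+/+ and of -0.346 in top2b-/- brains. Such a pattern, up in Top2b+/+ and down in top2b-/-, was shown by 18.4% of the probe sets tested. Pomc had -1.76 in Top2b+/+ and 0.922 in top2b-/- brains, a pattern shown by 1081 of 7453 probe sets, and the Top2b+/+ reading of E18.5 was within the noise. With that reading raised to the noise limit, the Top2b+/+ value of Pomc was at least 1.67-fold lower at E18.5. The interaction per day did not pass for either (limma, adjusted p = 0.9998 for both, with 0.67 ± 0.34 for Pomc).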

How the results depend on the processing

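No member passed by genotype under 9 of the 10 alternatives. Without scaling 3 did (Sst, Npy and Pomc), when the calls over all probe sets went from 3 to 110 and the cause was not tested. By age 1 member passed, against 4 without scaling (Sst, Npy, Cck and Penk) and 0 with no filter, without the intensity trend or without the E16.5 pair, where the cause was not tested either. No member passed the interaction test under any alternative that could be fitted. Sst, Npy and Tac1 had a negative genotype difference under all 10 alternatives, from -1.79 to -1.13, from -1.46 to -0.76 and from -1.25 to -0.52. Pomc had a positive one in all 9 it was tested in, from 0.44 to 2.20. Over all probe sets, genotype calls were 8 with the noise limit as the floor, 14 without the E14.5 pair and 0 with no filter, without the trend, or when either later pair was left out, against 3. Age calls were 352 without scaling, 266 after quantile normalization, 225 with the stricter filter, 4 with no filter, 3 without the E16.5 pair and 0 without the trend, against 111. Interaction calls were 50 without scaling, against 0. No paired analysis by replicate number was possible because the labels give none; age as a term pairs the arrays. Signal over background limits Pomc, 94517_r_at of Penk and all of Pdyn. The interaction had no fit with a pair left out, and the age difference none without the E14.5 or E18.5 pair.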

Other observations

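Nxph1, which encodes a secreted ligand of neurexins made by interneurons, was on the list of GABAergic genes but was not tested, as its mean lay under the filter. It was chosen for description after its values were seen. It read 106, 196 and 188 in Top2b+/+ brains in order of age, all above the noise limit. In top2b-/- brains it read -24.7, -41.6 and -61.1, below 0 on every array. The last 2 of these exceeded in size the noise limits of their arrays, 40.7 and 32.4. Like Sst and Tac1, its genotypes did not overlap, and unlike them it had no measurable signal in top2b-/- brains. The share of probe sets without overlap, 3.74% with top2b-/- below, covers only those tested, so it does not cover Nxph1.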
